A study of Mus musculus with 18 samples.

Results

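The receptors through which blood progenitors receive growth signals are described here by 9 mouse genes, Kit, Flt3, Csf1r, Csf2ra, Csf2rb, Csf2rb2, Csf3r, Il3ra and Il6ra. They were taken by symbol, matched to the Ensembl IDs of the count tables, and all 9 were among the 37620 genes that each table lists. The series measured polyadenylated RNA in mice given 2 mg/ml doxycycline in their water at 6 to 8 weeks of age, on a C57B6/129 hybrid strain. Its title names an inducible histone H3 in which a lysine is replaced by methionine, either lysine 9 (K9M) or lysine 36 (K36M), and the remaining group is labelled wildtype (WT). The labels do not say whether the WT mice carry a transgene of their own, nor which promoter drives the mutant histone. Every group received doxycycline. Each genotype was measured in bone marrow cells that lack lineage markers and carry the cKit receptor (Lin- cKit+), in dissociated intestine and in dissociated testes, with 2 libraries in each of the 9 groups. Each library of a group came from a different mouse. The same 6 mice gave intestine and testes, and 6 others gave bone marrow, so a difference between bone marrow and the other tissues is also one between mice, and the labels give no sex for single bone marrow libraries.

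Cytokine receptors sit in the cell membrane and pass the presence of a secreted ligand to the inside of the cell. Kit, Flt3 and Csf1r are receptor tyrosine kinases, which phosphorylate themselves after binding stem cell factor, FLT3 ligand and CSF-1. The receptors for GM-CSF and IL-3 are built from a ligand-specific alpha chain (Csf2ra, Il3ra) and a signalling beta chain, for which the mouse has the shared chain Csf2rb and the IL-3-specific copy Csf2rb2. Csf3r binds G-CSF, and Il6ra binds IL-6 and signals through the chain gp130, encoded by Il6st. These receptors without a kinase of their own work through JAK kinases and STAT transcription factors. In marrow they are known for sustaining progenitors and for supporting the output of granulocytes, monocytes and dendritic cells.

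Library totals over all genes were 17114164 to 21417915 counts for marrow, 13396303 to 20577661 for intestine and 16122101 to 20993726 for testes. Levels are given as CPM, a library's counts rescaled to a common total, after TMM scaling within a tissue, with mean ± SD over n = 2 libraries. Changes are log2 fold changes ± SE from edgeR's quasi-likelihood test, and a gene is said to rise or fall where its Benjamini-Hochberg adjusted p over all genes tested was below 0.05. Replicate libraries differed by more than counting noise in every group, so depth alone did not set the precision. The sorted cells carried Kit at 294 CPM or more in all 6 bone marrow libraries. Summed over 5 intestinal epithelium markers, the intestine libraries held 13530 to 21990 CPM, and over 6 germ cell markers the testes libraries held 4607 to 11500 CPM. The intestine library WT.1476 held 79.2 CPM of the germ cell markers against 5.22 CPM in WT.1477.

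In WT bone marrow all 9 receptor genes were expressed, and their levels per kilobase of exon spanned about an order of magnitude. Csf3r was highest, at 54.2 ± 1.10 CPM per kilobase, followed by Kit at 50.1 ± 1.61 and Csf2ra at 45.6 ± 4.34. Csf1r stood at 34.9 ± 10.2, Csf2rb at 21.6 ± 3.95 and Flt3 at 20.4 ± 1.05 CPM per kilobase. Il3ra followed at 13.6 ± 0.76, Il6ra at 12.1 ± 2.60 and Csf2rb2 at 4.44 ± 1.57 CPM per kilobase. The libraries of Csf2rb and Flt3 overlapped in this order, as did those of Il3ra and Il6ra, and the other neighbours did not overlap. With 2 libraries a gene, Kit and Csf2ra were separated by about the SD of Csf2ra alone.

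In K36M bone marrow the receptor genes were mostly lower than in WT: 6 of the 9 fell, none rose and 3 did not pass the test. The genes that fell were the alpha chains Csf2ra and Il3ra, the G-CSF receptor Csf3r, the IL-6 receptor Il6ra and the kinases Csf1r and Kit. The 3 that did not pass were the kinase Flt3 and the beta chains Csf2rb and Csf2rb2. Over all 14604 genes tested in this comparison, 24.6% fell and 23.5% rose, 48% in either direction. The median log2 fold change was -1.39 over the 9 receptor genes and -0.02 over all genes tested. In bulk RNA, fewer cells of a type and less RNA per cell cannot be told apart.

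The alpha chain genes fell furthest. Csf2ra, the chain that binds GM-CSF, was at 140 and 122 CPM in WT, 126 and 121 CPM in K9M and 29.9 and 24.3 CPM in K36M. Both K36M libraries lay far below the other 4, which stood close together. Its log2 fold change in K36M against WT was -2.27 ± 0.11 (adjusted p = 2.73e-05, edgeR). Il3ra, the chain that binds IL-3, was at 38.9 and 42.1 CPM in WT, 51.8 and 53.1 CPM in K9M and 12.5 and 7.21 CPM in K36M. Again both K36M libraries were lowest, with no overlap between groups. Its change in K36M was -2.03 ± 0.22 (adjusted p = 0.000743, edgeR).

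The beta chains did not pass the test. Csf2rb, the chain shared by the receptors for GM-CSF, IL-3 and IL-5, was at 178 and 137 CPM in WT, 166 and 175 CPM in K9M and 161 and 109 CPM in K36M, so WT and K36M overlapped. Its log2 fold change in K36M was -0.22 ± 0.21 (adjusted p = 0.441, edgeR). Csf2rb2 was at 26.3 and 15.8 CPM in WT, 31.6 and 29.5 CPM in K9M and 23.5 and 16.3 CPM in K36M, with a change of -0.08 ± 0.28 (adjusted p = 0.840, edgeR). The sign of neither was settled, since leaving out single libraries moved Csf2rb between -0.53 and 0.05 and Csf2rb2 between -0.40 and 0.35. Within a library, alpha and beta chains therefore stood in a different proportion. The ratio of Csf2ra to Csf2rb counts was 0.786 and 0.890 in WT, 0.760 and 0.690 in K9M and 0.186 and 0.224 in K36M. For Il3ra to Csf2rb the ratio was 0.219 and 0.307 in WT, 0.312 and 0.303 in K9M and 0.0776 and 0.0662 in K36M. These ratios do not depend on the scaling between libraries, and they carry no correction for gene length.

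**Figure D1:**
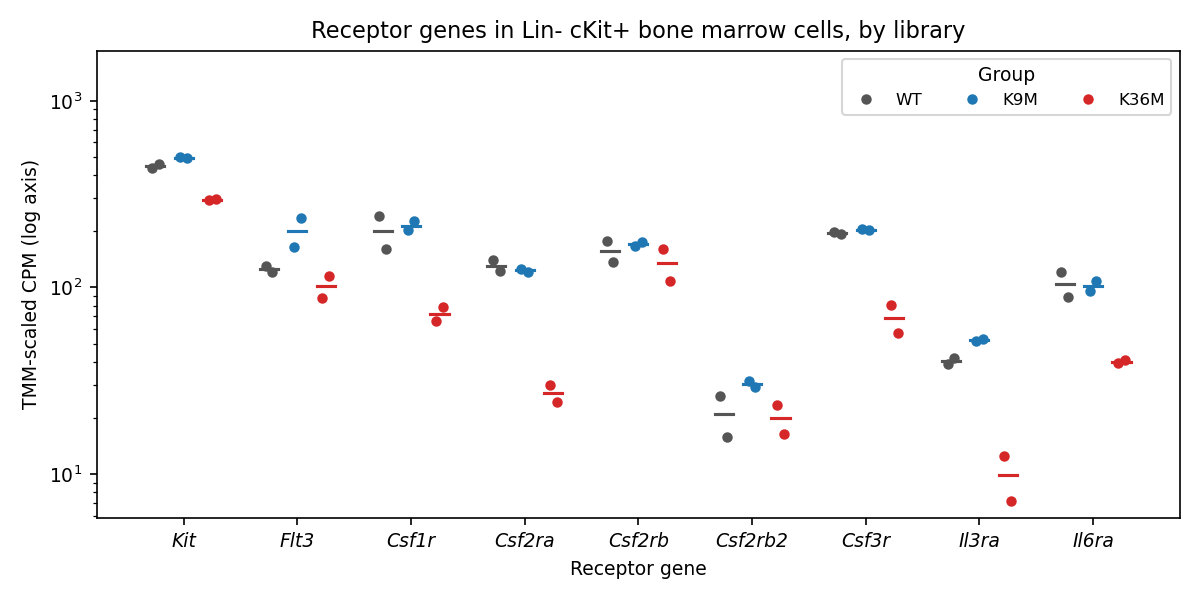
Level of each receptor gene in the 6 bone marrow libraries, as TMM-scaled CPM on a log axis. Points are libraries and short lines are means of 2. The K36M points of Csf2ra (29.9 and 24.3 CPM) and Il3ra (12.5 and 7.21 CPM) lie furthest below WT, while those of Csf2rb overlap WT.

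Counts of the beta chains carry an uncertainty of their own, because the genes are near-identical copies. Their reference coding sequences, 2688 bases for Csf2rb and 2634 for Csf2rb2, were identical at 95.4% of 2626 aligned bases. Of the 50-base windows of Csf2rb, 687 of 2639 (26.0%) occurred unchanged in Csf2rb2, and the longest identical run was 242 bases. A read from such a window fits both genes. The stretch below, coding bases 2280 to 2369 of each (GENCODE M21 transcripts, 5′ to 3′), is shown for how little separates the copies, with capitals at the 2 columns that differ.
Csf2rb: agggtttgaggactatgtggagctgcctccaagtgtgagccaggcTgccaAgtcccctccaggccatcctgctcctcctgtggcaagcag
Csf2rb2: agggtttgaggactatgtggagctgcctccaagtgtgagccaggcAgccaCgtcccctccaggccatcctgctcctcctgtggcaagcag
Alignments that were not unique had an entry apart from the genes, 22.15% to 23.67% of all counts in the 6 bone marrow libraries. Whether such reads were also counted for a gene is not given in the sources used here. With the counts of both genes summed, the change in K36M bone marrow was -0.20 (adjusted p = 0.494, edgeR), which again did not pass. Csf2rb2 made up 10.3% to 16.0% of the summed counts in the 6 bone marrow libraries.

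Csf3r and Il6ra, whose ligands are known for driving and supporting neutrophil output, both fell. Csf3r was at 198 and 193 CPM in WT, 205 and 202 CPM in K9M and 80.9 and 56.8 CPM in K36M. The WT and K9M libraries were nearly level and both K36M libraries were lower. The change in K36M was -1.51 ± 0.15 (adjusted p = 0.000505, edgeR). Il6ra was at 121 and 88.9 CPM in WT, 95.1 and 108 CPM in K9M and 39.5 and 40.6 CPM in K36M, a change of -1.39 ± 0.15 (adjusted p = 0.000573, edgeR). Il6st, the signalling partner of Il6ra, also fell, with 106 and 79.1 CPM in WT against 30.1 and 25.9 CPM in K36M (log2 -1.72 ± 0.15, adjusted p = 0.000246, edgeR). The ratio of Il6ra to Il6st counts was 1.14 and 1.12 in WT, 0.916 and 1.05 in K9M and 1.31 and 1.57 in K36M. The chain that binds the ligand and the chain that signals were thus both lower for IL-6, whereas for GM-CSF and IL-3 only the alpha chains passed the test.

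Among the kinases, Csf1r fell most and Kit least, and Flt3 did not pass. Csf1r, the receptor of the monocyte and macrophage lineage, was at 243 and 160 CPM in WT, 202 and 226 CPM in K9M and 66.4 and 78.5 CPM in K36M. The WT libraries differed more from each other than those of the other groups, yet both lay above both K36M libraries (-1.47 ± 0.22, adjusted p = 0.00400, edgeR). Exons of Csf1r share 873 bases with Hmgxb3 on the other strand, and since the use of strand in counting is not given, reads there cannot be assigned with certainty. Kit, on which the cells were sorted, was at 436 and 457 CPM in WT, 500 and 492 CPM in K9M and 294 and 296 CPM in K36M. Replicates agreed closely and the groups did not overlap. The change in K36M was -0.60 ± 0.06 (adjusted p = 0.000171, edgeR), a call that was lost when all 18 libraries shared a fit (adjusted p = 0.0620). Flt3, known for lymphoid, dendritic and early multipotent progenitors, was at 131 and 121 CPM in WT, 165 and 235 CPM in K9M and 87.4 and 115 CPM in K36M. Both K36M libraries were below both WT libraries, but the log2 fold change of -0.31 ± 0.21 did not pass (adjusted p = 0.263, edgeR).

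**Figure D2:**
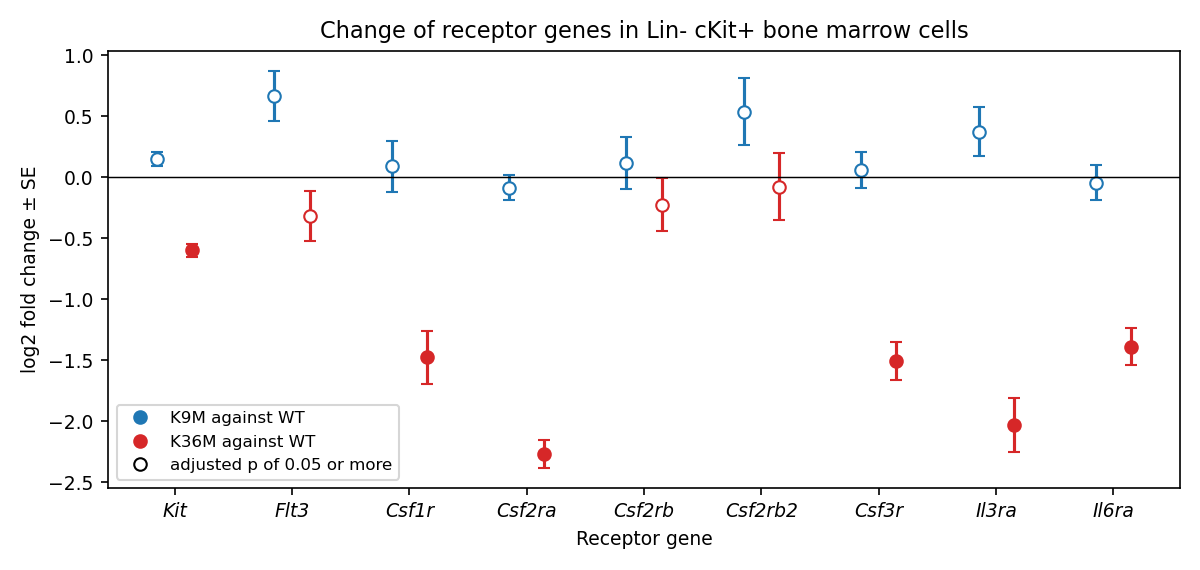
Log2 fold change ± SE of each receptor gene in bone marrow, K9M and K36M against WT, from edgeR with 2 libraries a group. Filled points passed an adjusted p of 0.05: in K36M 6 genes lie below 0, from Kit at -0.60 to Csf2ra at -2.27, and in K9M none passed.

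Marker genes of blood lineages moved in the same libraries, where 24.6% of all genes tested fell in K36M and 23.5% rose. Summed over 14 granulocyte and monocyte markers, which include Mpo and Elane, WT bone marrow held 19900 and 15500 CPM, K9M 17620 and 17050 CPM and K36M 5172 and 3858 CPM, and 12 of the 14 fell in K36M. The 9 erythroid markers summed to 1498 and 2545 CPM in WT, 1790 and 1387 CPM in K9M and 3561 and 3836 CPM in K36M, with 5 that rose and none that fell. The mast cell and basophil markers summed to 406 and 387 CPM in WT against 165 and 140 CPM in K36M, and 5 of 6 tested fell. Dendritic markers summed to 138 and 183 CPM in WT, 48.0 and 42.5 CPM in K9M and 29.6 and 26.2 CPM in K36M. The sum of 6 stem cell markers was 377 and 336 CPM in WT, 489 and 537 CPM in K9M and 194 and 201 CPM in K36M, with 2 that rose and 2 that fell in K36M. The 8 macrophage markers summed to 68.4 and 53.6 CPM in WT against 32.2 and 38.1 CPM in K36M. Of 7 tested, 3 fell and none rose, yet their median log2 fold change was 0.56. Of 5 megakaryocyte markers 3 rose and 1 fell in K36M. Of 8 B cell markers none passed, and of 3 T and NK cell markers tested 2 fell. The part of these lineages in the change of the receptor genes was not tested.

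K9M bone marrow showed no receptor gene past the threshold, where 1.01% of all genes tested passed (0 of 9, edgeR). At an unadjusted p below 0.05 there were 2, Flt3 and Kit. Flt3 had the largest difference, 0.67 ± 0.20 on the log2 scale (adjusted p = 0.257, edgeR), with both K9M libraries above both WT libraries but well apart from each other. DESeq2, run as an alternative, did pass Flt3 (adjusted p = 0.0197) and no other receptor gene. Kit differed by 0.15 ± 0.06 (adjusted p = 0.276), Csf2rb2 by 0.54 ± 0.27 (adjusted p = 0.437) and Il3ra by 0.37 ± 0.20 (adjusted p = 0.460, all edgeR). The other 5, Csf1r, Csf2ra, Csf2rb, Csf3r and Il6ra, lay between -0.08 and 0.12. Summed over 8 B cell markers, K9M held 139 and 195 CPM against 95.1 and 39.2 CPM in WT, and none of them passed. Of 6 stem cell markers 2 rose in K9M, Hlf and Cd34. Of 7 dendritic markers 3 fell, H2-Aa, H2-Ab1 and Cd74. The part of these cells in the level of Flt3 was not tested.

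Set against each other, K9M bone marrow was higher than K36M for 7 of the 9 receptor genes and lower for none, where 27.8% of all genes tested were higher and 26% lower. This comparison shares its K36M libraries with the one against WT. The 7 were the 6 genes that fell in K36M and Flt3, which differed by 0.98 ± 0.21 (adjusted p = 0.0105, edgeR). The call for Flt3 was lost without a filter on low counts (adjusted p = 0.0753). The largest differences were again those of the alpha chains, 2.40 ± 0.22 for Il3ra (adjusted p = 0.000314) and 2.18 ± 0.11 for Csf2ra (adjusted p = 2.21e-05, both edgeR). Csf2rb differed by 0.34 ± 0.22 (adjusted p = 0.241) and Csf2rb2 by 0.62 ± 0.27 (adjusted p = 0.106, both edgeR), although for both genes each K9M library was above each K36M library. Csf2rb2 passed in the fit of these genotypes alone (adjusted p = 0.0197), without WT.1262 (adjusted p = 0.0194) and without WT.1266 (adjusted p = 0.0191), and Csf2rb passed without K36M.1310 (adjusted p = 0.0253).

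The promoters of the receptor genes were read for short letters known from blood transcription factors. RefSeq promoters (GRCm38.p6) were at hand for 7 of the 9 genes. In the 250 bases before the start, on either strand, AGGAAG, which holds the core bound by ETS factors such as PU.1, occurred in 6 of 7, against 29.2% of 27025 promoters. GATAA, the core of GATA factors, occurred in 2 of 7 against 23% of promoters, and TTGCNNAA, a form of the C/EBP site, in 1 of 7 against 9.55%. These motifs were chosen after the sequences and changes were seen, so the shares are a description. The windows of 60 bases below run 5′ to 3′ on the strand of the gene. They show a match for each of the 5 genes read that fell, with AGGAAG or its reverse complement in capitals.
Csf2ra, chr19:61228419-61228478, minus strand: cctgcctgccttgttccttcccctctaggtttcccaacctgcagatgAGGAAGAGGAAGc
Il3ra, chr14:14346328-14346387, plus strand: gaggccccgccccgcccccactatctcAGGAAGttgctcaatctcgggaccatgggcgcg
Csf3r, chr4:126024599-126024658, plus strand: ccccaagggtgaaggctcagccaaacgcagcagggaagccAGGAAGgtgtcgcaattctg
Il6ra, chr3:89913338-89913397, minus strand: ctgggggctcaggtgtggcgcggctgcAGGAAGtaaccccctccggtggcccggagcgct
Kit, chr5:75574738-75574797, plus strand: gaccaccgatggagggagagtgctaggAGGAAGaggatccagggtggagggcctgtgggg
The genes that did not pass in K36M are shown for contrast, Csf2rb2 with its match and Flt3 with the bases next to its start, where the letters do not occur.
Csf2rb2, chr15:78305857-78305916, minus strand: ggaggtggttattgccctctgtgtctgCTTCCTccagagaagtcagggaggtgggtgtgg
Flt3, chr5:147400490-147400549, minus strand: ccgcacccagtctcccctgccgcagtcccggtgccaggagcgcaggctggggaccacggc
Csf2ra held 2 adjoining matches and Csf3r 4 in the 250 bases. In Il3ra the letters run straight into the TTGCNNAA match. The match was thus present in genes that fell and in Csf2rb2, which did not pass, and these letters say nothing of whether a factor was bound.

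Of 18 transcription factor genes listed for blood progenitors, 10 fell in K36M bone marrow and 4 rose, with a median log2 fold change of -0.46. Over all genes tested, 24.6% fell and 23.5% rose. The 4 listed factors that rose were Gata1, Meis1, Tal1 and Lmo2, and Gata2 was among those that fell. Cebpa, a driver of granulocyte and monocyte fate, fell from 224 and 182 CPM in WT to 83.0 and 70.9 CPM (-1.40 ± 0.14, adjusted p = 0.000453, edgeR). Myb, a factor of proliferating progenitors, fell by 0.78 ± 0.05 and Klf4, a factor of monocytes, by 3.25 ± 0.24 on the log2 scale (adjusted p = 5.29e-05 and 0.000104, edgeR). Spi1, which encodes PU.1 and was singled out for its link to the motif, fell by 0.88 ± 0.17 (adjusted p = 0.00683, edgeR). Klf4 was also the only gene of the pathway lists that passed in K9M, at -1.57 ± 0.22 (adjusted p = 0.0244, edgeR). Over all genes tested in K9M, 1.01% passed. Hoxa9, a stem and progenitor factor, came next in K9M with 0.63 ± 0.13 (adjusted p = 0.0742, edgeR).

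Upstream of the receptors, only Csf1 of 11 listed ligand genes passed the filter on low counts in bone marrow. Csf1, the ligand of Csf1r, was at 12.99 and 11.2 CPM in WT, 8.91 and 10.1 CPM in K9M and 2.88 and 2.55 CPM in K36M. Ligand and receptor were thus both lower in K36M, with Csf1 at -2.15 ± 0.19 (adjusted p = 0.000137, edgeR).

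Other cytokine receptor genes moved in both directions in K36M: of 25 tested, 12 fell and 5 rose, with a median of -0.30, where 24.6% of all genes tested fell and 23.5% rose. The 5 that rose were Epor, Il18r1, Il9r, Il12rb1 and Lepr. Il9r, the receptor of IL-9, rose most clearly, from 8 and 4 counts in the WT libraries (0.375 and 0.184 CPM) to 722 and 767 counts in K36M (35.8 and 42.5 CPM). The K9M libraries stayed at the WT level with 8 and 2 counts, and the fitted change in K36M was 7.10 ± 0.40 (adjusted p = 4.98e-05, edgeR). Il12rb1, a chain of the IL-12 receptor, rose by 1.42 ± 0.19 (adjusted p = 0.000690, edgeR). In K9M none of the 25 passed, where 1.01% of all genes tested did. Il1r1 and Il2rb came nearest at 0.83 ± 0.20 and -1.23 ± 0.34 (adjusted p = 0.136 and 0.180, edgeR).

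Downstream, genes of the JAK and STAT families mostly did not pass: of 11 tested, 2 rose and 1 fell in K36M. Over all genes tested, 23.5% rose and 24.6% fell. Stat4, which acts after IL-12, went from 43.8 and 41.4 CPM in WT to 9.12 and 11.9 CPM (-2.02 ± 0.13, adjusted p = 4.98e-05, edgeR). Stat5a, a main effector of GM-CSF and IL-3 receptors, rose by 0.51 ± 0.08 and Stat6 by 0.22 ± 0.07 (adjusted p = 0.00178 and 0.0269, edgeR). Among 21 adaptor and kinase genes that couple receptors to further pathways, 11 fell and 4 rose, where 24.6% and 23.5% of all genes did. Their median was -0.33. Pik3r1, a regulatory subunit of PI3 kinase, fell by 0.63 ± 0.08, while the adaptors Shc1 and Gab2 rose by 0.65 ± 0.07 and 0.57 ± 0.08 (adjusted p = 0.000464, 0.000264 and 0.000843, edgeR). In K9M none of these 32 passed, where 1.01% of all genes tested did. Jak3 was at 0.56 ± 0.13, Stat6 at 0.16 ± 0.07 and Plcg1 at 0.47 ± 0.13 (adjusted p = 0.121, 0.333 and 0.187, edgeR).

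Genes known to be switched on by STATs, and inhibitors of the pathway, held some of its largest rises in K36M. Of 16 STAT target genes, 10 rose and 3 fell, with a median of 0.67, where 23.5% of all genes rose and 24.6% fell. Of 19 inhibitor genes, 8 rose and 7 fell, with a median of -0.01, and Cish, Socs2 and Socs3 stand on both lists. Cish, a feedback inhibitor induced by STAT5, was at 4.97 and 4.09 CPM in WT, 4.66 and 7.84 CPM in K9M and 44.3 and 35.3 CPM in K36M. Both K36M libraries were several times above all others (3.13 ± 0.26, adjusted p = 0.000179, edgeR). Socs2, of the same family, rose by 2.61 ± 0.32 and the cytokine gene Osm, a STAT5 target, by 1.70 ± 0.18 (adjusted p = 0.000690 and 0.000299, edgeR). Socs5 and the survival gene Bcl2 fell by 1.67 ± 0.17 and 1.55 ± 0.14 (adjusted p = 0.000256 and 0.000258, edgeR). In K9M none of either list passed, where 1.01% of all genes tested did. Socs2 was at 1.01 ± 0.32, Bcl2 at 0.56 ± 0.13 and Spry2, an inhibitor of receptor kinase signalling, at 0.42 ± 0.12 (adjusted p = 0.235, 0.140 and 0.195, edgeR).

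**Figure D3:**
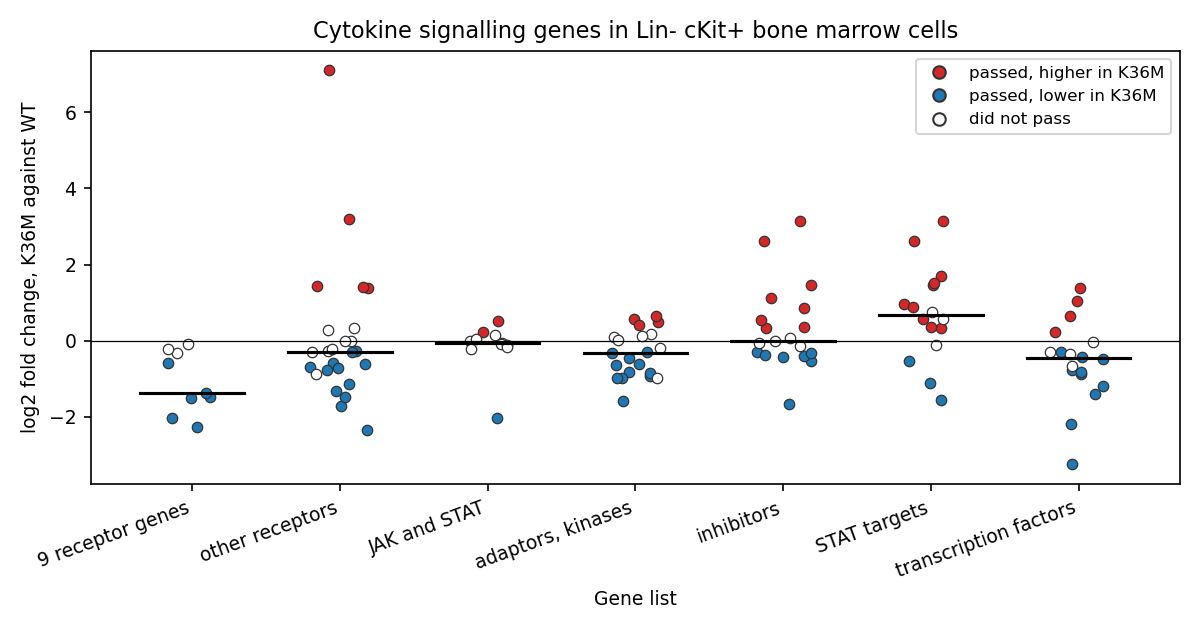
Log2 fold change of K36M against WT in bone marrow for the tested genes of each list, with red and blue for those that passed an adjusted p of 0.05 and a black line at the median. The 9 receptor genes have a median of -1.39, the STAT targets one of 0.67, and Il9r stands alone at 7.10 among the other receptors.

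Across tissues in WT mice, the receptor genes were mostly higher in the sorted bone marrow cells, with an exception. These cells were sorted as Lin- cKit+, whereas intestine and testes were dissociated. A higher Kit level in bone marrow thus follows from the sort, and its test is no separate finding. The part of the sort in the levels of the other receptor genes was not tested. All 9 were higher in bone marrow than in intestine, where 30.2% of all genes tested were higher, by 2.45 ± 0.62 on the log2 scale for Il3ra and 5.68 ± 0.20 for Kit (adjusted p = 0.0150 and 2.16e-06, edgeR). Csf3r had 8418 counts in WT bone marrow and 2 in WT intestine, a ratio of 3430 after division by library totals (exact 95% counting interval 950 to 28400), and Csf2rb2 had 903 and 3, a ratio of 246 (83.8 to 1190). Against testes 8 were higher, where 35% of all genes were, from 2.98 ± 0.33 for Csf2rb2 to 7.36 ± 0.19 for Csf3r (adjusted p = 0.000172 and 2.94e-06, edgeR). The call for Il3ra against intestine was lost without WT.1262 or WT.1266 (adjusted p = 0.0599 and 0.0681). Its difference was 4.23 without WT.1476 of intestine and 1.72 without WT.1477 of intestine, so its size rested on single libraries. Il3ra was also the exception in testes, with 13.6 ± 0.76 CPM per kilobase in bone marrow and 8.22 ± 1.16 in testes. These levels were scaled within each tissue. In the fit of all WT libraries, which were scaled together, the log2 difference was 0.36 ± 0.55 and did not pass (adjusted p = 0.561, edgeR). Per kilobase it was the highest of the 9 in WT testes, ahead of Kit at 2.78 ± 0.49. Another scaling, by library size alone, shifted the median of all genes by 0.61 against intestine and by 0.33 against testes, and left all 9 higher in bone marrow than in intestine and 8 higher than in testes.

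Between intestine and testes of the same mice, Csf2ra was higher in intestine by 0.99 ± 0.21 (adjusted p = 0.00383, edgeR) and the other 8 were lower, where 34.6% and 48.5% of all genes were. By library size alone the call for Csf2ra was lost (0.36, adjusted p = 0.0981). With the mouse as a replicate block, Csf2rb and Il3ra lost their calls (-0.75, adjusted p = 0.200, and -2.19, adjusted p = 0.0904), and the count of lower genes went from 8 to 6. Without single libraries 6 or 7 were lower: Csf2rb lost its call without WT.1476 or WT.1477 of intestine, WT.1476 of testes or WT.1262 of bone marrow, and Il3ra without either testes or either bone marrow library. In WT intestine Csf2ra stood at 1.86 ± 0.16 CPM per kilobase, and Il3ra at 1.19 ± 1.10, with 1.96 in WT.1476 and 0.412 in WT.1477. Kit was at 0.500 ± 0.008 CPM per kilobase, and the remaining 6 lay between 0.016 and 0.140. Flt3, Csf2rb2, Csf3r and Il6ra had 1 to 5 counts in each WT intestine library, close to the limit of detection. In WT.1476, where Il3ra was high, the germ cell markers were high too, and their part was not tested.

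**Figure D4:**
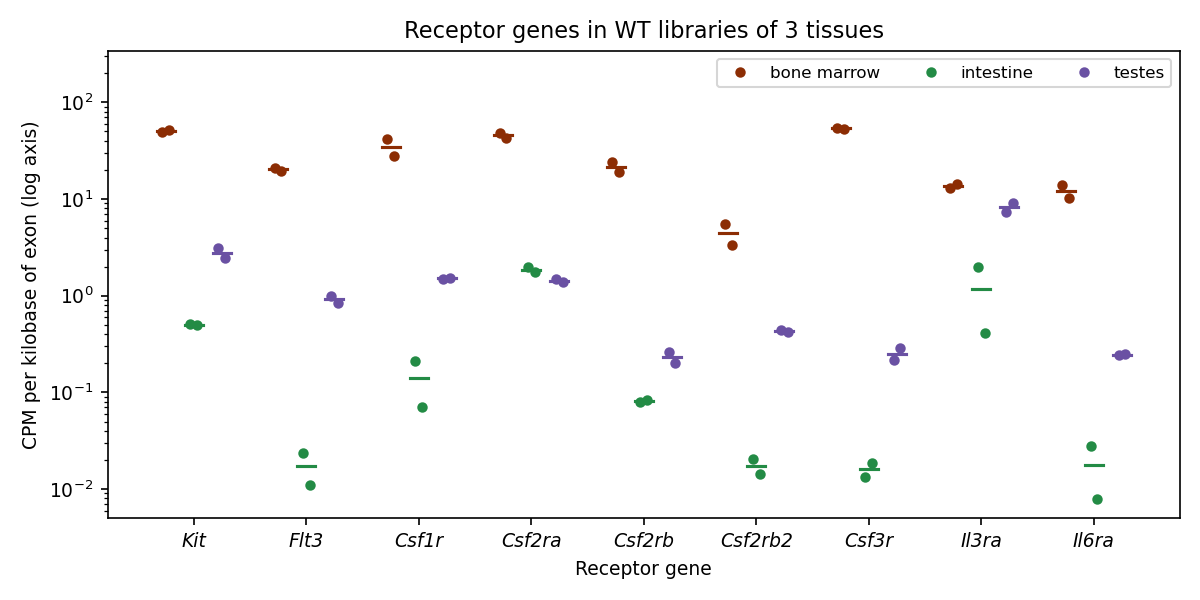
Level of each receptor gene in the WT libraries of bone marrow, intestine and testes, in CPM per kilobase of exon, scaled within each tissue, on a log axis. Points are libraries and short lines are means of 2. On this scale bone marrow is highest for every gene, and Il3ra in testes (8.22 ± 1.16) comes nearest to it (13.6 ± 0.76). With the WT libraries scaled together, the log2 difference of Il3ra, 0.36 ± 0.55, did not pass (adjusted p = 0.561, edgeR).

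In K36M intestine 6 of the 9 genes had enough counts to be tested. Csf1r rose, and the other 5 did not pass, where 11.7% of all genes tested rose and 11.7% fell. Csf1r was at 1.21 and 0.407 CPM in WT, 2.02 and 1.14 CPM in K9M and 10.8 and 6.61 CPM in K36M, with both K36M libraries above all others. The change was 3.37 ± 0.61 (adjusted p = 0.0129, edgeR), and it did not pass without WT.1477 (adjusted p = 0.0635). The 8 macrophage markers summed to 6.74 and 4.75 CPM in WT, 5.23 and 8.57 CPM in K9M and 27.5 and 8.13 CPM in K36M, and 1 of 6 tested rose. All 6 T and NK cell markers fell, from a sum of 66.9 and 81.7 CPM in WT to 14.6 and 8.31 CPM in K36M. The 7 mast cell and basophil markers summed to 4.75 and 4.95 CPM in WT, 8.13 and 4.34 CPM in K9M and 144 and 63.4 CPM in K36M, although 4 of them had 0 counts in both K36M libraries. Hdc, which makes histamine, was the 1 marker of these tested, and it rose (4.53 ± 0.50, adjusted p = 0.00340, edgeR). The 6 stem cell markers summed to 19.7 and 36.3 CPM in WT, 27.4 and 34.8 CPM in K9M and 108 and 76.9 CPM in K36M, and 2 of 3 tested rose, Hlf and Ly6a. Whether these sums follow the cells that the lists are named for was not tested. Their part in the level of Csf1r was not tested either.

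Csf2ra in intestine went the other way, from 5.68 and 5.02 CPM in WT to 2.69 and 1.09 CPM in K36M, with no overlap, but it did not pass (adjusted p = 0.0547, edgeR). It did pass, as lower, by DESeq2, by limma-voom, without a filter on low counts, without K36M.1485 and with all 18 libraries in a fit. Its K9M libraries, at 6.27 and 6.12 CPM, were the highest. Kit, which in the gut marks the interstitial cells of Cajal, was at 4.51 and 4.41 CPM in WT, 3.42 and 2.17 CPM in K9M and 2.84 and 2.55 CPM in K36M (adjusted p = 0.194, edgeR). Il3ra was at 5.82 and 1.22 CPM in WT, 2.07 and 0.572 CPM in K9M and 1.72 and 0.668 CPM in K36M, the single high library being WT.1476 (adjusted p = 0.267, edgeR). The rest were scarcely detected. Csf2rb had 12 and 9 counts in WT, 10 and 7 in K9M and 32 and 11 in K36M (adjusted p = 0.218), and Il6ra had 5 and 1, 4 and 5, and 15 and 10 (adjusted p = 0.0755, edgeR). Flt3, Csf2rb2 and Csf3r were not tested. Flt3 had 3 and 1 counts in WT, none in K9M and 5 and 3 in K36M, Csf2rb2 had 2 and 1, 6 and 4, and 14 and 3, and Csf3r had 0 to 3 in every library. Shifts of this size are not readable at this depth. In K9M intestine none of the 6 passed, where 0.211% of all genes did. Between the mutants, Csf1r was lower in K9M than in K36M by 2.45 ± 0.57 and Csf2ra was higher by 1.72 ± 0.45 (adjusted p = 0.0256 and 0.0360, edgeR), where 12.2% and 12.9% of all genes were. The call for Csf1r was lost without K9M.1516, K9M.1519 or K36M.1485, and that for Csf2ra without any of the 4 WT and K9M libraries.

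In K36M testes the beta chains rose, in contrast to bone marrow. Of 9 genes tested, 4 rose and 1 fell, where 25.7% and 23.8% of all genes did. Csf2rb was at 1.92 and 1.45 CPM in WT, 1.58 and 1.58 CPM in K9M and 8.10 and 4.32 CPM in K36M. The K36M libraries differed from each other but lay above all others (1.89 ± 0.35, adjusted p = 0.00715, edgeR). Csf2rb2 was at 2.10 and 2.02 CPM in WT, 2.39 and 2.35 CPM in K9M and 8.64 and 7.09 CPM in K36M (1.93 ± 0.21, adjusted p = 0.00247, edgeR). Its share of the summed counts of both genes was 51.6% to 62.2% in the 6 testes libraries, with exact 95% intervals between 39.7% and 70.8%, against 10.3% to 16.0% in bone marrow. Summed as a single gene, the pair rose by 1.91 (adjusted p = 0.00275, edgeR). The sum does not depend on how counted reads were divided between the copies. Reads counted for neither copy would be missing from it.

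Il6ra rose in testes too, from 2.10 and 2.16 CPM in WT to 6.18 and 5.24 CPM in K36M (1.42 ± 0.24, adjusted p = 0.00563, edgeR), with K9M at 1.77 and 2.44 CPM. Il3ra, at 21.97 and 26.8 CPM in WT, 27.2 and 28.4 CPM in K9M and 30.1 and 46.0 CPM in K36M, rose by 0.64 ± 0.22 (adjusted p = 0.0447, edgeR). Csf3r fell from 13 and 22 counts in WT to 7 and 5 in K36M, with 12 and 19 in K9M (-1.31 ± 0.44, adjusted p = 0.0430, edgeR). These last calls were the least stable, and each was lost under 10 of 17 alternatives. Without WT.1476 only 2 genes rose and without WT.1477 only 1, Csf2rb2 keeping its call under every alternative that counts it as a gene of its own. The call for Csf2rb was lost without WT.1477 (adjusted p = 0.0616), and that for Il6ra without WT.1476 (adjusted p = 0.0535) and without WT.1477 (adjusted p = 0.0522).

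The remaining genes did not pass in K36M testes. Csf1r was at 8.52 and 8.91 CPM in WT, 9.62 and 10.3 CPM in K9M and 6.90 and 6.72 CPM in K36M, which was lowest without overlap (adjusted p = 0.0857, edgeR). By library size alone, and without K36M.1485, Csf1r did pass as lower. Kit, which germ cells at the start of spermatogenesis are known to use, was at 27.9 and 21.7 CPM in WT, 24.2 and 30.0 CPM in K9M and 26.8 and 19.7 CPM in K36M (adjusted p = 0.741, edgeR). Flt3 was at 6.18 and 5.21 CPM in WT, 5.88 and 4.12 CPM in K9M and 5.88 and 6.78 CPM in K36M (adjusted p = 0.595, edgeR). Csf2ra was at 4.26 and 3.94 CPM in WT, 3.64 and 3.48 CPM in K9M and 3.66 and 4.13 CPM in K36M (adjusted p = 0.774, edgeR). For these 3 genes the WT and K36M libraries overlapped. Among all genes tested in K36M testes, 25.7% rose and 23.8% fell. The macrophage markers summed to 69.3 and 72.5 CPM in WT, 72.7 and 74.1 CPM in K9M and 116 and 135 CPM in K36M, where 7 of 8 rose and 1 fell. Their defining gene Adgre1 was at 4.32 and 4.32 CPM in WT and 3.06 and 1.79 CPM in K36M. The 4 Leydig cell markers summed to 359 and 289 CPM in WT, 192 and 420 CPM in K9M and 61.0 and 38.0 CPM in K36M, where 3 fell. All 4 Sertoli cell markers rose, from a sum of 84.9 and 88.2 CPM in WT to 203 and 257 CPM in K36M. The 9 erythroid markers summed to 213 and 209 CPM in WT and 471 and 658 CPM in K36M, and 4 of 8 tested rose. The 6 germ cell markers summed to 4607 and 4833 CPM in WT and 7786 and 11500 CPM in K36M, where 2 rose and 3 fell. Whether these sums follow the cells that the lists are named for was not tested. Their part in the receptor levels was not tested either.

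In K9M testes none of the 9 passed, where 0.0678% of all genes did. Between the mutants Csf2rb, Csf2rb2 and Il6ra were lower in K9M than in K36M by 1.97 ± 0.35, 1.73 ± 0.20 and 1.43 ± 0.24 on the log2 scale (adjusted p = 0.00642, 0.00302 and 0.00548, edgeR), where 25.4% of all genes were. Csf1r was higher by 0.55 ± 0.15 (adjusted p = 0.0224, edgeR), where 23.9% were. Without K9M.1516 none of the 3 lower calls was left, without K9M.1519 that of Csf2rb was lost, and the call for Csf1r was lost without any of the 4 WT and K9M libraries.

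**Figure D5:**
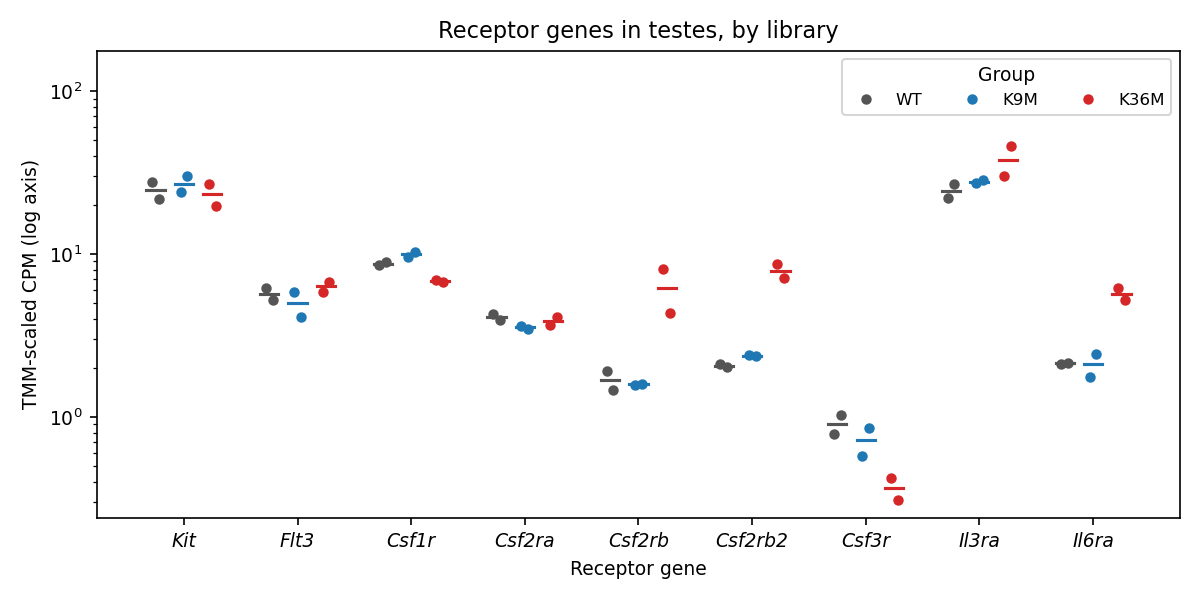
Level of each receptor gene in the 6 testes libraries, as TMM-scaled CPM on a log axis. Points are libraries and short lines are means of 2. The K36M points of Csf2rb (8.10 and 4.32 CPM), Csf2rb2 (8.64 and 7.09 CPM) and Il6ra (6.18 and 5.24 CPM) lie above all WT and K9M points.

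The difference between the tissues was tested as an interaction. The K36M effect was lower in bone marrow than in testes for 6 of the 9 genes and higher for none, where 17.3% of all genes tested were lower and 18% higher. It was -2.75 ± 0.28 for Il6ra, -2.61 ± 0.34 for Il3ra and -2.14 ± 0.21 for Csf2ra (adjusted p = 8.03e-05, 0.000300 and 6.50e-05, edgeR). For the beta chains it was -2.06 ± 0.44 in Csf2rb and -1.95 ± 0.39 in Csf2rb2, and for Csf1r -1.06 ± 0.27 (adjusted p = 0.00440, 0.00280 and 0.0104, edgeR), the last being lost when all 18 libraries shared a fit (adjusted p = 0.103). Kit, Flt3 and Csf3r did not pass. Between bone marrow and intestine 2 genes differed, where 11.1% of all genes were lower and 9.93% higher: Csf1r by -4.81 ± 0.55 and Il6ra by -3.69 ± 0.59 (adjusted p = 0.000514 and 0.00245, edgeR). Without the intestine library K36M.1553 the count was 5. Il6ra had only 5 and 1 counts in WT intestine and 15 and 10 in K36M intestine. Within intestine its change did not pass (adjusted p = 0.0755, edgeR). Between intestine and testes Csf1r differed by 3.65 ± 0.59 (adjusted p = 0.00262, edgeR), where 10.1% of all genes were higher and 12.4% lower. With the mouse as a replicate block Csf1r differed by 3.71 (adjusted p = 0.0143, edgeR). The K9M effect did not differ between any pair of tissues for any of the 9 past the threshold (0.123% to 0.268% of all genes passed).

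Among the 9, some genes followed each other closely over the 6 bone marrow libraries. The measure is the root mean square difference of log2 CPM after centring each gene, which is small where patterns coincide. It was smallest for Csf1r and Il6ra (0.120), then for Csf2rb and Csf2rb2 (0.221), Csf3r and Il6ra (0.229) and Csf2ra and Il3ra (0.252). The largest value was 0.947, for Il3ra with either beta chain. Outside the 9, among 10702 candidates, Maoa and Mpo came nearest to Csf2ra (0.0487 and 0.0605), Unc93b1 and Mndal to Csf1r (0.0595 and 0.0639) and Atrnl1 and Snx10 to Il6ra (0.0514 and 0.0557). Nearest to Csf3r were Slc25a23 and Kcnh7 (0.0537 and 0.0646), and nearest to Kit were Stx16 and Slc5a3 (0.0316 and 0.0325). The nearest to Il3ra, Scml4 at 0.136 and Ppp1r26 at 0.149, were further off than those of the other members. Flt3 was nearest to Carns1 and Sec31b (0.0812 and 0.0864), Csf2rb to Dgkg and Nradd (0.0695 and 0.0713) and Csf2rb2 to Slc25a29 and Fcgr2b (0.0848 and 0.124). All were picked as the smallest values among the 10702 candidates over only 6 libraries, so they are a description.

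Over all 18 libraries, where the difference between tissues dominates, the largest Pearson correlations of log2 CPM were those of Csf3r with Arhgap15 (0.993) and of Csf2rb with Car1 (0.992). Kit followed Haus3 and Rgs19 (0.991 and 0.989), Flt3 Prkd3 and Chek1 (0.990 and 0.988) and Il6ra Sun2 and Cd93 (0.989 and 0.987). Il3ra, which is also present in testes, reached only 0.950 with Adam11 and 0.936 with Tcp11l2. The remaining nearest genes were Man1c1 and Gpc1 for Csf1r (0.979 and 0.974), Ifi203 and Slc18a2 for Csf2ra (0.981 and 0.980) and Mpeg1 and Fcgr2b for Csf2rb2 (0.980 and 0.977). The libraries share tissue and depth, and these values were picked as the largest among 11224 candidates, so they are a description.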

How the data were processed

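The authors deposited raw read counts per gene for 18 libraries. The submitters' processing notes name STAR, HTSeq and the build mm9. Not given in the sources used here are versions and the strand setting. Nor is it given whether reads tallied as not uniquely aligned were also counted for a gene. Each table listed 37620 genes and 5 entries that name no gene, which were left out. Symbols (32897 IDs matched), exon lengths and overlaps came from GENCODE M21 on GRCm38, and no coordinates of the counts' own build are printed. EdgeR 4.0.16 in R 4.3.3 (TMM, filterByExpr, robust quasi-likelihood) was fitted per tissue on 6 libraries with 3 residual degrees of freedom, on the 6 WT libraries for tissue comparisons, and as an interaction over 12 libraries for effects between tissues. P-values were adjusted by Benjamini-Hochberg over all genes tested. The fits were run on simulated data, drawn from a single mean profile with a limited set of changed genes. Shifts as broad as those between these groups were absent from it, so the fits were not tested for them. Alternatives were DESeq2 1.42.0, limma-voom (limma 3.58.1), other scaling and filters, other sets of libraries in a fit, an adjusted p of 0.01, and each library left out. The sum of Csf2rb and Csf2rb2 in testes and the left-out libraries for effects between tissues were added after seeing the data. Intervals cover counting error only.

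The 9 genes and the pathway and marker lists were chosen with earlier results of these data known. All 9 are named everywhere. Of each pathway list the rule named the 3 genes with the smallest adjusted p in K36M bone marrow and the 2 in K9M, and a gene that it named is not reported here. It also named the 2 nearest genes by each measure of likeness, among genes whose log2 CPM averaged 1 or more. Mouse numbers in the labels pair intestine with testes. Over 13100 genes, the correlation between these tissues of each mouse's departure from its group was 0.0493 for WT, 0.114 for K9M and -0.0503 for K36M.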

Additional observations from a re-analysis of the deposited data

Results flagged for a closer look

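The K36M effect differed between tissues in 9 cases, each by an interaction test past the adjusted threshold (edgeR). Bone marrow was below testes by -2.75 for Il6ra, -2.61 for Il3ra, -2.14 for Csf2ra, -2.06 for Csf2rb, -1.95 for Csf2rb2 and -1.06 for Csf1r on the log2 scale. It was below intestine by -4.81 for Csf1r and -3.69 for Il6ra, and intestine was above testes by 3.65 for Csf1r. In intestine Il6ra rested on 1 to 15 counts a library.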

How the results depend on the processing

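In K36M bone marrow 6 receptor genes fell under every alternative but the fit of all 18 libraries, which gave 5. In K9M bone marrow DESeq2 gave 1 higher. Leaving out single libraries turned the sign of genes that had not passed: in K36M, Csf2rb ranged from -0.53 to 0.046 and Csf2rb2 from -0.40 to 0.35, and in K9M, Csf1r from -0.18 to 0.42, Csf2ra from -0.18 to 0.015, Csf2rb from -0.060 to 0.31 and Il6ra from -0.25 to 0.19.

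In K36M intestine, lower genes numbered 1 by DESeq2, 1 by limma-voom and 2 without a filter, higher genes 0 at an adjusted p of 0.01, and with all 18 libraries 3 were higher and 2 lower; left-out libraries gave 0 to 1 each way. In K9M against K36M intestine, higher genes numbered 0 in the fit of these genotypes alone and 0 at 0.01, lower genes 0 at 0.01 and 3 with all 18 libraries; left-out libraries gave 0 to 1 higher and 0 to 2 lower. In K36M testes, lower genes numbered 2 by library size alone and 0 by DESeq2, without a filter, in the fit of 2 genotypes, at 0.01 and with all 18 libraries; left-out libraries gave 1 to 4 higher and 0 to 2 lower. In K9M against K36M testes, higher genes numbered 0 in the fit of 2 genotypes, at 0.01 and with all 18 libraries; left-out libraries gave 0 to 1 higher and 0 to 4 lower. WT intestine against testes gave 0 higher by library size alone. The K36M effect was lower in bone marrow than in intestine for 2 to 5 genes with libraries left out, and lower in intestine than in testes for 0 to 1, and for 1 with all 18 libraries. The causes were not tested. With the mouse as a replicate block the count of genes lower in WT intestine than in testes was 6 in place of 8, Csf2rb and Il3ra losing their calls, and no other call of the 9 genes changed. Fits with a group of 1 library took its spread from the other groups.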
